A study of Homo sapiens with 18 samples.

Results

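The 10 genes described here are kinases, a scaffold and transcriptional effectors of the Hippo pathway: LATS1, LATS2, STK3 and STK4 are the kinases, SAV1 is the scaffold, and the effectors are YAP1, WWTR1, TEAD1, TEAD2 and TEAD4. They were chosen by symbol from a list of 10, and all 10 were found among the 8996 genes of the deposited table, so no member is absent. The table comes from SLAM-seq of HEK293T, a human embryonic kidney cell line of wild-type genotype. Wells were given STM2457, an inhibitor of the m6A methyltransferase METTL3, or its solvent DMSO, and 3 h later 4-thiouridine (s4U) at 100 µM for 90 or 180 min, or no s4U. Each of these 6 combinations had 3 samples, 18 in all, all from the same line. N6-methyladenosine (m6A) is a mark on mRNA, and the series title concerns its effect on decay when it lies in coding regions.

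In the Hippo pathway the kinases STK3 and STK4 (also called MST2 and MST1), held by SAV1, activate LATS1 and LATS2. The LATS kinases phosphorylate the coactivators YAP1 and WWTR1 (TAZ), which keeps them out of the nucleus and marks them for degradation. Unphosphorylated YAP1 and TAZ bind TEAD transcription factors and switch on growth genes. They also switch on LATS2 itself, which closes a negative feedback loop. The pathway is known for limiting organ size and for sensing cell density, and its activity is set largely on the proteins, so mRNA turnover is one layer of it.

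The values are those fitted by the authors, 1 half-life and 1 rate of synthesis for a gene in each treatment, with no replicate values, intervals or counts. Depth and error are therefore unknown, no test can be made, and every contrast below is between fitted values. A gene is called longer-lived or shorter-lived where its ratio of STM2457 to DMSO passed 1.5-fold. That is a rule of size and not a test of significance. Hours are inferred as the time unit, because the longest half-life in the table, 69.3, is ln 2 over a rate of 0.01. Synthesis rates are in the units of the table, which it does not name. Whether they are scaled to gene length is not known. The libraries were 3′ mRNA libraries, so rates per kb below are an alternative reading and not a correction. METTL3 mRNA, whose protein the compound inhibits, had a fitted half-life of 4.00 h (DMSO) or 3.51 h (STM2457). Half-lives of the whole table had medians of 5.61 h (DMSO) and 5.39 h (STM2457), and their log2 ratio had quartiles of -0.58 and 0.73. Of the embryonic kidney and neurofilament markers, 6 of 9 were in the table (NEFL, NEFM, INA, WT1, SALL1 and SIX2). The 3 not in it, PAX2, PAX8 and LHX1, were all kidney markers. Of 12 markers of other cell types only COL1A1 and CDX2 were in the table. The synthesis rates of the 6 ranged from 65.02 to 303 in DMSO, and those of COL1A1 and CDX2 were 25.2 and 196. Some of these markers differed between treatments as members did: SIX2 had 2.71 h with DMSO and 46.4 h with STM2457, and COL1A1 had 7.85 and 29.1 h. CDX2, an intestinal factor, had 2.00 h with DMSO and was at the ceiling of 69.3 h with STM2457. That ceiling is shared by 980 genes in STM2457, so the value is a cap. The synthesis rate of NEFL was 117 in DMSO and 263 in STM2457, and that of NEFM 217 and 543. The part of these markers in the results was not tested.

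Of the 10 members, 4 were longer-lived under STM2457 (LATS2, TEAD4, LATS1 and TEAD1), 1 was shorter-lived (STK3) and 5 stayed within 1.5-fold. Of all genes, 28.5% passed the rule upward and 24.9% downward. The median log2 half-life ratio of the members was 0.45, against -0.0052 for all genes. Synthesis rates passed 1.5-fold downward in 3 members (LATS2, LATS1 and TEAD1) and upward in 2 (TEAD2 and STK3), where 13.2% and 12.6% of all genes did so. The median log2 synthesis ratio was -0.34 in the members and -0.057 in all genes.

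**Figure D1:**
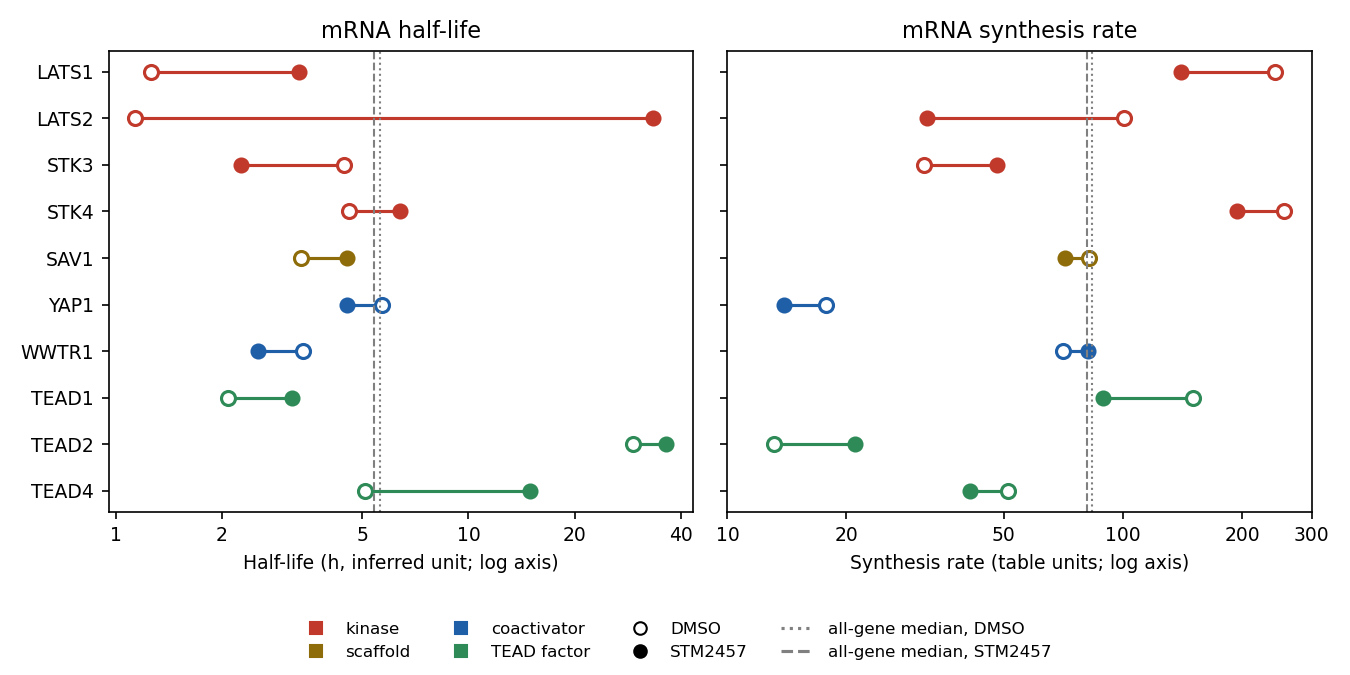
Fitted half-life in hours (left) and synthesis rate in table units (right) of each member on log axes, open circles for DMSO and filled circles for STM2457, with the medians of all 8996 genes as vertical lines. LATS2 has the longest line in both panels, from 1.14 to 33.3 h and from 101 to 31.9, and the LATS kinases had the shortest half-lives of the members in DMSO.

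The LATS kinases, which phosphorylate YAP1 and TAZ, had the least stable mRNAs of the 10 in DMSO and were both longer-lived in STM2457. LATS2 (ENSG00000150457.9, chromosome 13, 20973032 to 21061547) decayed with a half-life of 1.14 h under DMSO against 33.3 h under STM2457, 29.3-fold longer. This log2 ratio of 4.87 lies at percentile 99.2 of all genes. Its synthesis rate was 101 in DMSO and 31.9 in STM2457, 3.16-fold lower, at percentile 0.373 of synthesis ratios. LATS2 has no call where half-lives are limited to 0.5 to 24 h, since 33.3 h is outside that range. It combined one of the largest half-life ratios in the table with one of the smallest synthesis ratios.

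LATS1 (ENSG00000131023.13, chromosome 6, 149658153 to 149718256) lasted 1.26 h under DMSO and 3.30 h under STM2457, 2.63-fold longer. Synthesis was fitted at 242 in DMSO and 140 in STM2457, 1.73-fold lower. The 2 paralogs differed little in DMSO, at percentiles 3.80 (LATS1) and 2.64 (LATS2) of all half-lives, and stood far apart in STM2457, at percentiles 27.3 and 86.6. Short-lived genes were often longer-lived with STM2457. Of the 311 other genes within 1.2-fold of LATS2 in DMSO half-life, 43.7% were longer-lived, and the upper quartile of their log2 ratios was 0.96. The 390 such neighbours of LATS1 had an upper quartile of 0.96. Both LATS ratios exceed the upper quartile of their neighbours.

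The sequences below show the coding stretches of the LATS kinases in which m6A motifs far from exon junctions are densest. Only coding sequences were searched, and those of the LATS kinases hold the most far motifs of the members. The motif, DRACH, is A, G or T, then A or G, then the methylated A, then C, then A, C or T, read on the mRNA strand only. A motif counts as far when its central A lies at least 100 nt from any exon junction, since m6A is depleted near junctions. Each run is in the 5′ to 3′ sense of the mRNA, from GENCODE 29 transcripts (GRCh38), and capitals mark far motifs. The LATS2 window is chr13:20983442-20983561 on the minus strand, in coding exon 4 of 7 (583 nt), with 7 far motifs of which 3 begin with GGAC. The LATS1 window is chr6:149683376-149683495 on the minus strand, in coding exon 3 of 7 (1514 nt), with 6 far motifs of which 1 begins with GGAC.
LATS2: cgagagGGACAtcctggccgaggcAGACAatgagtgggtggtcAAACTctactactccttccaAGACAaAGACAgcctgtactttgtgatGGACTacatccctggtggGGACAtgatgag
LATS1: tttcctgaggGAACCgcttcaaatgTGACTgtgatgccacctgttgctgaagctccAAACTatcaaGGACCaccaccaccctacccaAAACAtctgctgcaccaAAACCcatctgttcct

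These windows were picked as the densest 120 nt of each coding sequence, so their counts describe them and support no comparison. Of 126307 consecutive tiles of 120 nt cut from the coding sequences of 8527 genes, 89.8% held at least 1 DRACH motif at any distance, 24.4% at least 1 far motif, 0.666% held 6 or more far motifs and 0.202% held 7 or more. Neither m6A nor the sites that carry it were measured in this table.

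The upstream kinases were more stable than the LATS pair in DMSO, and their half-life ratios had opposite signs. STK4 (ENSG00000101109.12, chromosome 20, 44966474 to 45079959) had 4.59 h with DMSO and 6.40 h with STM2457, a log2 ratio of 0.48 and within 1.5-fold. Synthesis was fitted at 255 in DMSO and 194 in STM2457, and per kb of length in the table at 40.1 and 30.4, the highest of all members in each treatment. SAV1, which brings these kinases to LATS1 and LATS2 (ENSG00000151748.14, chromosome 14, 50632058 to 50668331), had 3.36 h with DMSO and 4.52 h with STM2457, a log2 ratio of 0.43. Its fitted synthesis was 82.2 in DMSO and 71.2 in STM2457, so the scaffold stayed within 1.5-fold in both measures. The log2 half-life ratios of STK4 and SAV1 lie inside the quartiles of all genes.

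STK3 was the only shorter-lived member, and the only kinase with a higher synthesis rate in STM2457. STK3 (ENSG00000104375.17, chromosome 8, 98371228 to 98942827) lasted 4.44 h under DMSO and 2.27 h under STM2457, 1.96-fold shorter. Its synthesis rate was 31.4 in DMSO and 47.9 in STM2457, 1.53-fold higher. In DMSO the half-lives of STK3 and STK4 were close, at percentiles 40.1 and 41.6 of all genes, while their synthesis rates per kb were 5.88 and 40.1. Of the 1348 genes within 1.2-fold of STK3 in DMSO half-life, 20.5% were shorter-lived.

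Both coactivators had shorter half-lives with STM2457, by less than 1.5-fold. YAP1 (ENSG00000137693.14, chromosome 11, 102110461 to 102233423) had 5.68 h with DMSO and 4.52 h with STM2457, a log2 ratio of -0.33. Its synthesis rate, 17.7 in DMSO and 13.9 in STM2457, was at percentiles 7.55 and 4.65 of all genes, and was the lowest of the members in STM2457. WWTR1, which encodes TAZ (ENSG00000018408.14, chromosome 3, 149517235 to 149736714), had 3.40 h with DMSO and 2.53 h with STM2457, a log2 ratio of -0.43. Synthesis ran at 70.6 in DMSO and 81.6 in STM2457. Per kb of length in the table these are 14.0 and 16.2, against 3.28 and 2.58 for YAP1. YAP1 was the only member with both half-life and synthesis rate lower in STM2457, and neither coactivator passed 1.5-fold in synthesis.

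TEAD factors carry YAP1 and TAZ to DNA. TEAD1, TEAD2 and TEAD4 had longer half-lives in STM2457, with TEAD4 and TEAD1 past 1.5-fold, whereas TEAD3, which is not among the 10, had a log2 ratio of -0.48. TEAD4 (ENSG00000197905.9, chromosome 12, 2959330 to 3040673) had 5.10 h with DMSO and 15.0 h with STM2457, 2.94-fold longer. Its synthesis rate was 51.3 in DMSO and 40.9 in STM2457, within 1.5-fold. TEAD1 (ENSG00000187079.17, chromosome 11, 12674591 to 12944483) had 2.08 h with DMSO and 3.17 h with STM2457, 1.53-fold longer and thus only just past the rule. Its log2 half-life ratio of 0.61 lies inside the quartiles of all genes. Of the 864 other genes within 1.2-fold of TEAD1 in DMSO half-life, 39.9% were longer-lived. Its rate of synthesis was 151 in DMSO and 89.0 in STM2457, 1.69-fold lower.

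TEAD2 (ENSG00000074219.13, chromosome 19, 49340595 to 49362457) was the most stable member, at 29.4 h with DMSO and 36.4 h with STM2457, a log2 ratio of 0.31. Its synthesis rate was 13.1 in DMSO and 20.98 in STM2457, 1.60-fold higher, and TEAD2 was the only member with both measures higher in STM2457. The factors differed widely among themselves: in DMSO, the half-life of TEAD2 was 14.1-fold that of TEAD1. Synthesis in DMSO was 13.1 for TEAD2, 51.3 for TEAD4 and 151 for TEAD1 in table units. Per kb it was 5.39 for TEAD2, 15.99 for TEAD1 and 30.0 for TEAD4. The order of TEAD1 and TEAD4 thus depends on the scaling to length. At a steady state with a half-life of 29.4 h, first-order turnover replaces 6.84% of TEAD2 mRNA in 180 min, against 63.2% for TEAD1.

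**Figure D2:**
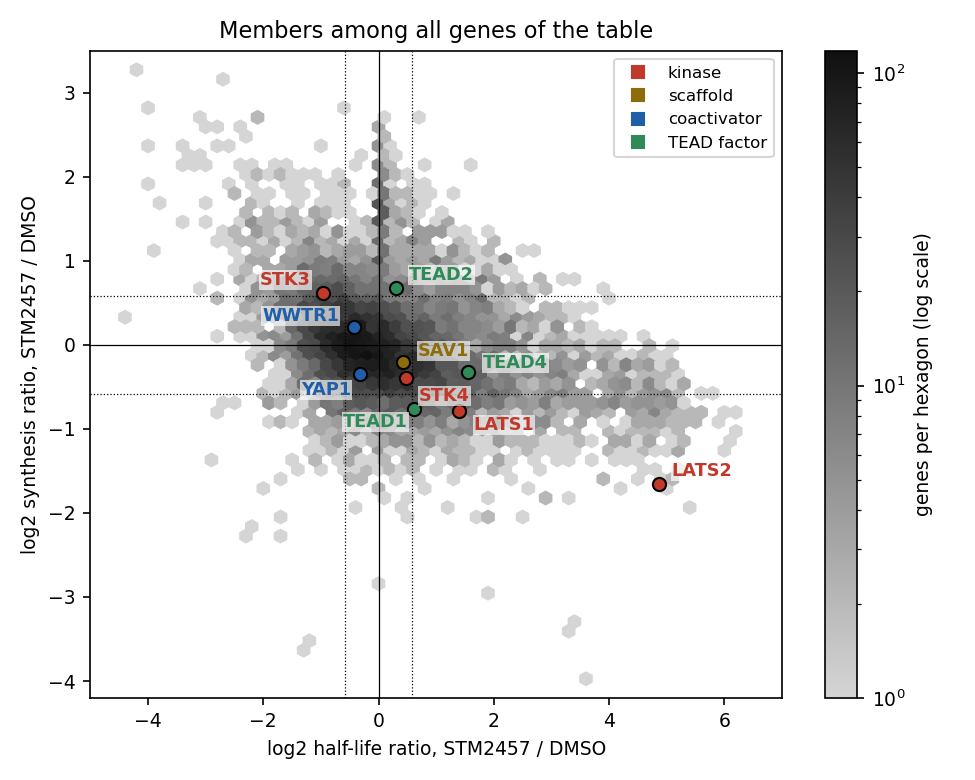
The log2 half-life ratio (horizontal) against the log2 synthesis ratio (vertical), STM2457 over DMSO, for 8993 genes as grey hexagons (darker for more genes, log scale) and the members as coloured points, with 1.5-fold marked by dotted lines. LATS2 lies at 4.87 and -1.66, away from the other members, and YAP1 and WWTR1 lie inside the dotted square.

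Ratios of half-life and of synthesis had opposite signs in 8 of the 10 members, the exceptions being YAP1 and TEAD2. Opposite signs were seen in 60.9% of all genes, and the Spearman correlation between these ratios was -0.35 over 8993 genes, which share their libraries. How the half-life and the synthesis rate of a gene were fitted is not known, and the part of the fit in this pairing was not tested. The fitted values imply a steady-state abundance, the synthesis rate over the decay rate. It was 9.28-fold higher in STM2457 for LATS2, 2.34-fold for TEAD4, 1.98-fold for TEAD2 and 1.52-fold for LATS1. Implied abundance was lowest relative to DMSO for YAP1, at 0.626-fold, then STK3 at 0.781-fold, WWTR1 at 0.861-fold and TEAD1 at 0.902-fold. SAV1 and STK4 were at 1.17-fold and 1.06-fold.

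Cells were exposed to the compound for at most 6 h. Synthesis at the higher of the fitted rates for 6 h without any decay would reach 4.66-fold the DMSO abundance for LATS2, 1.82-fold for TEAD4 and 1.23-fold for TEAD2. The implied abundances of these 3 exceed this, as they do for 21.9% of all genes. The other 7 members stayed under it, LATS1 among them with 1.52-fold against 4.31-fold. At a steady state with a half-life of 33.3 h, 6.05% of LATS2 mRNA would be new after 180 min in STM2457. At the DMSO half-life the steady-state share is 83.9%. The STM2457 share is nominal, since the abundance implied for that state is above what 6 h allows.

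The kinases, the pathway's inhibitory arm, were contrasted with the effectors, its output arm. Medians of half-life and synthesis rate in this contrast were taken on the log2 scale and converted back. For the 4 kinases the middle 2 values are thus averaged as logs, which gives a lower figure than their plain average. In DMSO the median half-life of the 4 kinases was 2.36 h (1.14 to 4.59 h) and that of the 5 effectors 5.10 h (2.08 to 29.4 h), a 2.16-fold difference with ranges that overlap. In STM2457 the medians were 4.60 h (2.27 to 33.3 h) and 4.52 h (2.53 to 36.4 h), a log2 difference of 0.024. The median log2 half-life ratio was 0.94 in the kinases (-0.97 to 4.87) and 0.31 in the effectors (-0.43 to 1.55). The kinases thus held both the most extreme longer-lived member, LATS2, and the one shorter-lived member, STK3. Among the kinases 2 were longer-lived and 1 shorter-lived, and among the effectors 2 were longer-lived and 0 shorter-lived.

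The kinase medians rest on a split between the LATS pair and the STK pair. The log2 difference in half-life in DMSO, kinases minus effectors, was -1.11, and it was -0.20 without LATS1 or without LATS2 and -2.02 without STK3 or without STK4. The difference in log2 half-life ratio, 0.63, was 0.17 without LATS1 or without LATS2 and 1.08 without either STK gene. In STM2457 the sign of the difference turned when LATS2 or STK4 was left out (-0.45), or YAP1 (-0.58), or WWTR1 or TEAD1 (-0.84).

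The kinases had a higher median of fitted synthesis rates than the effectors, again taken on the log2 scale. The median rate in DMSO was 156 for the kinases (31.4 to 255) and 51.3 for the effectors (13.1 to 151), a 3.04-fold difference. In STM2457 it was 82.0 (31.9 to 194) and 40.9 (13.9 to 89.0), a 2.00-fold difference. The ranges overlap in both treatments. The slowest kinase was STK3 in DMSO and LATS2 in STM2457, and TEAD1 was the fastest effector in both. Per kb of length the fastest effector in both was TEAD4. The log2 difference of 1.61 in DMSO was 0.97 without LATS1 or without STK4, and that of 1.00 in STM2457 was 0.23 without either of these. Whether the rates are scaled to gene length is not known. Per kb of the length in the table the log2 differences were 0.80 and 0.47. The median log2 synthesis ratio was -0.59 in the kinases and -0.32 in the effectors.

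The LATS kinases stood apart from the other members in the number of far coding motifs as well. LATS1 had 58 far DRACH motifs among 83 in its coding sequence of 3390 nt, and LATS2 had 41 among 66 in 3264 nt, at percentiles 97.6 and 95.6 of 8527 genes. SAV1 had 10, YAP1 8, WWTR1 3, TEAD1 and STK3 2 each, TEAD4 and STK4 1 each and TEAD2 0. Per kb of coding sequence this came to 17.1 for LATS1, 12.6 for LATS2, 8.70 for SAV1 and 5.25 for YAP1, and to 2.50 or less in the others. Motifs at any distance numbered 43 in 1557 nt for STK3, 39 in 1524 nt for YAP1 and 35 in 1461 nt for STK4. The other counts were WWTR1 27 in 1200 nt, TEAD1 28 in 1278 nt, SAV1 23 in 1149 nt, TEAD2 24 in 1353 nt and TEAD4 20 in 1302 nt. In density at any distance the LATS kinases thus lay among the other members. With the narrower GGAC core, LATS2 had 15 far motifs, LATS1 8 and YAP1 2, and SAV1 and TEAD4 had 1 each. The longest coding exon was 1514 nt in LATS1 and 1424 nt in LATS2, and 187 nt (STK4) to 441 nt (SAV1) in the other members. Those exons held 37 of the 58 far motifs of LATS1 and 14 of the 41 of LATS2.

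**Figure D3:**
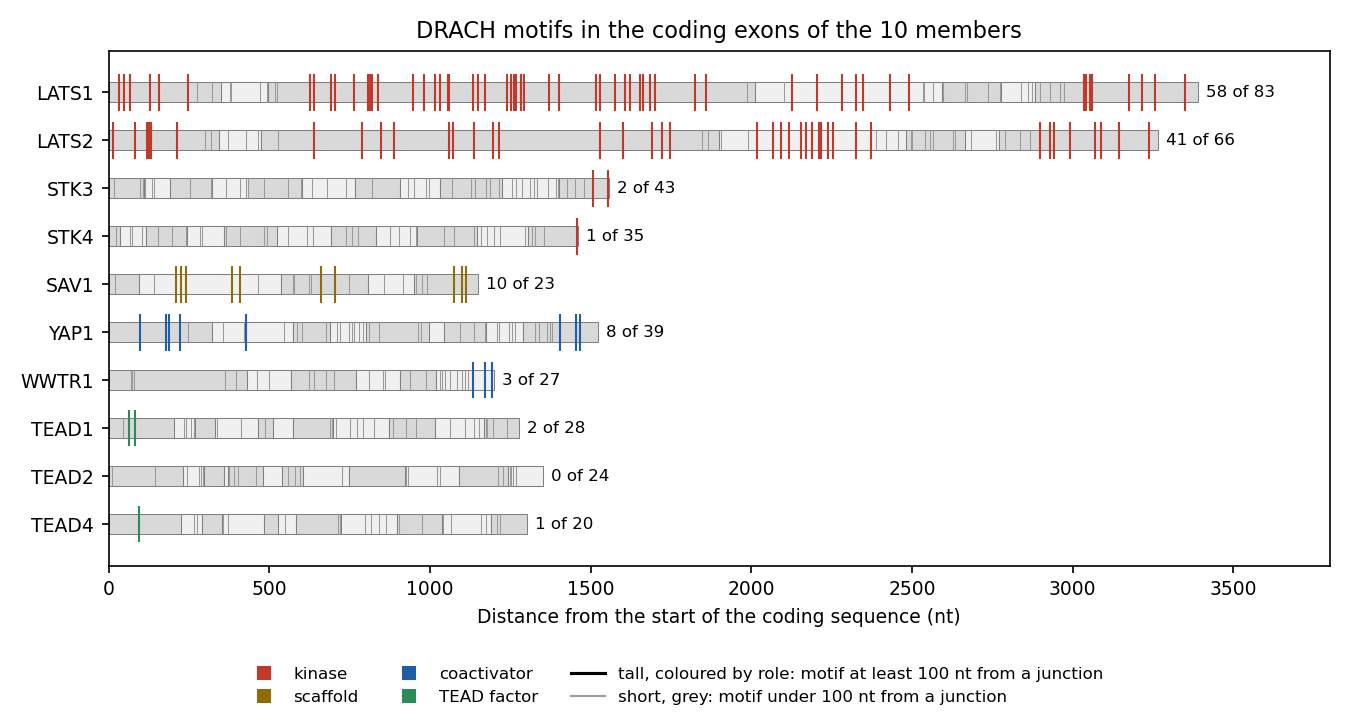
Coding exons of the 10 members as alternating grey boxes, by distance from the start of the coding sequence in nt, with DRACH motifs as tall coloured lines where far from a junction and short grey lines otherwise, and the far and total counts at the right. Far motifs run along most of LATS1 (58 of 83) and LATS2 (41 of 66), and the other members have 0 to 10.

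Stretches of YAP1, TEAD4 and STK4, which have fewer far motifs than the LATS kinases, are shown as well. They are shorter than the 120 nt windows of the LATS kinases and were also picked by their motifs, so their counts support no comparison. Each is 60 nt around the far motifs in the coding sequence of its gene, or around the densest group of them, with far motifs in capitals. The YAP1 stretch is chr11:102111014-102111073 on the plus strand, in coding exon 1 of 9, with 3 of the 8 far motifs in its coding sequence. That number of 8 is at percentile 71.7 of 8527 genes. The TEAD4 stretch is chr12:2994831-2994890 on the plus strand, in coding exon 1 of 11. The STK4 stretch is chr20:45075114-45075173 on the plus strand, in coding exon 11 of 11. Both hold the only far motif found in the coding sequence of their gene, and untranslated regions were not searched.
YAP1: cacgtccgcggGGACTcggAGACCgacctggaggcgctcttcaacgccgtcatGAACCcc
TEAD4: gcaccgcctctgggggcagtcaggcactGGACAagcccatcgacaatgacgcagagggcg
STK4: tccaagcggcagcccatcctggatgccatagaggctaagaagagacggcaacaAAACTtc

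Of 256925 consecutive tiles of 60 nt cut from the same coding sequences, 17.4% held at least 1 far motif and 2.19% held 3 or more. The motif of STK4 has its central A at coding position 1457 of 1461, and that of TEAD4 at position 95 of 1302.

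Across all genes the half-life ratio was higher in the classes of 10 or more far motifs than in those of fewer, and the members followed the classes only in part. Among the 398 genes with 40 or more, log2 ratios centred on 0.60 (quartiles 0.031 and 1.39) and 50.5% were longer-lived. LATS1, at 1.39, lies at the upper quartile of that class and LATS2, at 4.87, beyond it. Genes with 10 to 39 (1749 genes) had a median of 0.45, near the 0.43 of SAV1. Genes with 4 to 9 (1684 genes) had a median of -0.024 and quartiles of -0.53 and 0.63, which enclose YAP1. TEAD4, at 1.55 with 1 far motif, exceeds the upper quartile of 0.35 of genes with 1 to 3 (2522 genes), as do TEAD1 and STK4. STK3 lies under the lower quartile of that class, -0.71, and WWTR1 between its quartiles. TEAD2, with 0, lies inside the quartiles of genes with 0 (2174 genes), -0.76 and 0.43. The classes also differed in DMSO half-life, with medians of 9.26 h at 0 far motifs and 2.41 h at 40 or more. A motif count is a description of sequence, and its part in the half-life of any member was not tested.

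**Figure D4:**
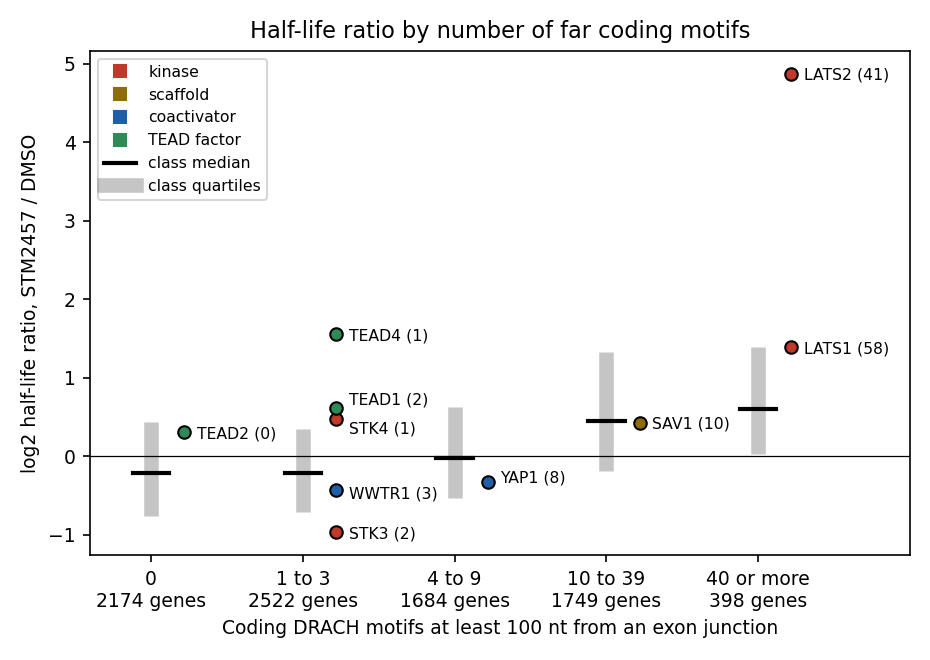
The log2 half-life ratio, STM2457 over DMSO, by class of far coding DRACH motifs, with each class's median (black bar) and quartiles (grey) over all genes and the members as coloured points with their motif number in brackets. LATS1 and LATS2 lie in the class of 40 or more, at and above its upper quartile of 1.39, and TEAD4 lies at 1.55 with 1 motif.

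Of 30 further core and upstream genes, 17 were in the table: 2 longer-lived, 4 shorter-lived and 11 inside the rule (median log2 ratio -0.15). The shares over the whole table were 28.5% longer-lived and 24.9% shorter-lived, with a median of -0.0052. RASSF5, a RAS-association scaffold that binds STK4, went from 4.13 h to 14.9 h and STK38, a kinase of the same family as LATS, from 6.32 to 20.5 h, while TAOK1, an activator of STK3 and STK4, had a log2 ratio of 0.29. Both RASSF5 and STK38 imply abundances above what 6 h of synthesis allows, 2.99-fold against 2.01-fold and 2.82-fold against 1.66-fold. WWC2 and WWC1, of the KIBRA family that activates LATS kinases, were 1.67-fold and 1.63-fold shorter-lived, and TAOK2 was 1.65-fold shorter-lived. None of these 17 genes passed 1.5-fold in synthesis rate, where 12.6% of all genes were higher and 13.2% lower.

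STRIPAK is a phosphatase complex that switches STK3 and STK4 off. Of 19 listed genes 16 were in the table, with 3 longer-lived, 6 shorter-lived and 7 inside the rule (median log2 ratio -0.26), beside 28.5% and 24.9% of all genes. The adaptor MOB4 was 2.79-fold shorter-lived (8.18 to 2.93 h) and the striatin STRN4 2.11-fold. CTTNBP2NL, which binds striatins, was 1.98-fold longer-lived, the catalytic subunit PPP2CA 1.85-fold, and the kinase STK24 1.53-fold. For STK24 the fit implies 2.07-fold its DMSO abundance, above the 1.83-fold that 6 h allows. In synthesis rate 0 of the 16 were higher and 1 lower past 1.5-fold, beside 12.6% and 13.2% of all genes.

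Among 20 regulators of YAP1 and TAZ and TEAD cofactors, 14 were in the table, with 2 longer-lived, 2 shorter-lived and 10 inside the rule (median log2 ratio -0.055), where all genes had 28.5% and 24.9%. LIMD1, a LIM protein that binds and holds LATS kinases, went from 1.65 to 5.08 h, and AMOTL1, an angiomotin that retains YAP1 in the cytoplasm, from 3.01 to 4.79 h. WTIP, a relative of LIMD1, had a log2 ratio of 0.55. PTPN11, a phosphatase, was 2.14-fold shorter-lived and the angiomotin AMOT 1.88-fold, so the 2 angiomotins in the table differed in direction. TEAD3, the fourth TEAD gene, had 2.87 h with DMSO and 2.05 h with STM2457, a log2 ratio of -0.48, on the other side of 0 from TEAD1, TEAD2 and TEAD4. In this list 0 genes were higher and 1 lower past 1.5-fold in synthesis rate (all genes 12.6% and 13.2%).

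Of 22 YAP and TAZ target genes only 7 were in the table, among them LATS2 itself, with 3 longer-lived, 1 shorter-lived and 3 inside the rule (median log2 ratio -0.087). The shares over all genes were 28.5% and 24.9%. CTGF, CYR61 and ANKRD1, the targets most used as readouts, were not in it. FJX1 went from 0.684 to 1.44 h and FOXF2 from 1.52 to 2.73 h, and ASAP1 was 1.58-fold shorter-lived. CCDC80 and CRIM1 had log2 ratios of -0.53 and -0.34. PTPN14, at -0.087, is counted both here and among the upstream genes. Synthesis rates of these 7 genes had a median log2 ratio of -0.40, with 0 higher and 2 lower past 1.5-fold (all genes 12.6% and 13.2%), and LATS2 is 1 of the 2.

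**Figure D5:**
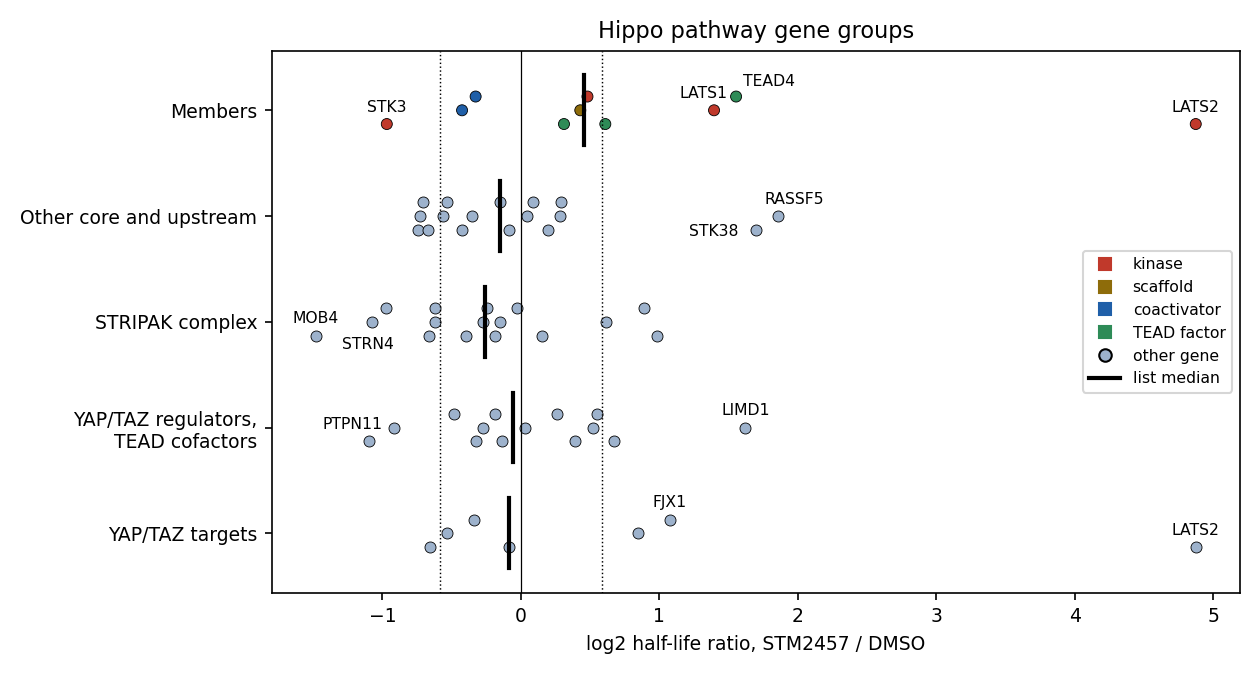
The log2 half-life ratio, STM2457 over DMSO, of the 10 members and of 4 further pathway lists (17, 16, 14 and 7 genes), 1 point per gene, with list medians as black bars and 1.5-fold as dotted lines. The members' median is 0.45 and those of the other lists lie between -0.26 and -0.055. LATS2 is shown in 2 rows, since it is also a target gene, and so is PTPN14, which is in the upstream and the target lists.

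The genes nearest to 2 of the members were found by Euclidean distance over 4 log2 values, the half-life and synthesis rate in both treatments, among 8992 other genes. For LATS1 they were SOBP (distance 0.233) and SMAD1 (0.245), the latter with half-lives of 1.14 and 3.68 h. For YAP1 they were TATDN3 (0.244) and TCFL5 (0.299), with half-lives in DMSO of 6.29 and 6.54 h. These distances rest on 4 values per gene.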

How the data were processed

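RNA was measured by SLAM-seq with 3′ mRNA libraries in 18 samples of HEK293T. Per the submitters' processing notes, FastQC 0.11.9, STAR 2.7.8a and GRCh38.p12 were used. Sources used here do not give the kinetic fit, its annotation, gene filter or use of strand, or the libraries behind each value. Each treatment has 1 half-life and 1 synthesis rate for every gene, deposited by the authors with log2 ratios of STM2457 over DMSO. The ratios were recomputed here and differed from the deposited log2 values by at most 1.27e-14. Depth, and the precision it gives, is unknown, and no test was possible. The rate of 3 genes was 0 in STM2457, so 8993 have a synthesis ratio. Half-lives within 1e-06 of the largest were taken as at the ceiling (229 genes in DMSO, 980 in STM2457, 0 members).

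The members and gene lists were chosen with earlier results of these data known. Text names all members and, per list, the 3 highest and 3 lowest ratios below the ceiling, except 1 gene that is not reported here. CTGF, CYR61 and ANKRD1 were added as targets not in the table, and PAX2, PAX8 and LHX1 as markers not in it. PTPN14 was added as a gene in 2 lists. Neighbours of YAP1 and LATS1 were taken as the 2 nearest genes.

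Coordinates and transcripts came from GENCODE release 29 (GRCh38): 8982 of 8996 gene identifiers matched once versions were dropped, and 3241 matched with them. Each gene is represented by its longest coding sequence (8527 genes), which need not be the isoform expressed: the transcript used for TEAD1 has 2544 nt, against 9417 nt in the table. With small nuclear RNA genes left out of the search, all members but TEAD4 overlap another annotated gene or small RNA, none of them in the table. Ratio counts and motif positions were tested on simulated data. Scripts ran in Python 3.11.15 with pandas 2.3.3, NumPy 2.4.6 and SciPy 1.17.1, and plots in Matplotlib 3.10.9. Alternatives varied the size rule, the range, the centring, the summary, the members left out, the motif and the transcript. Synthesis per kb was added after seeing the data, and the window for neighbours in DMSO half-life was then narrowed to 1.2-fold.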

Additional observations from a re-analysis of the deposited data

How the results depend on the processing

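No paired analysis was possible because the table has 1 value per gene and treatment and no columns for single samples. The number of longer-lived members, 4, was 3 to 6 under the alternatives. With both half-lives required to lie between 0.5 and 24 h it was 3, because LATS2, at 33.3 h in STM2457, is left out and its call ends. The number of shorter-lived members, 1, was 0 with a 2-fold rule and 3 with the looser rule tried. Centring on the median of all genes left each member's ratios within 0.1 of their values. No member was at the ceiling, so leaving ceiling genes out changed nothing.

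Kinases minus effectors, on the log2 scale, moved as follows, and the cause was not tested. With means in place of medians the differences were -1.29 (half-life in DMSO), -0.19 (half-life in STM2457, reversed from 0.024), 1.10 (half-life ratio), 1.5 (synthesis in DMSO) and -0.45 (synthesis ratio). With SAV1 among the kinases they were -0.60 (half-life in DMSO), 0.17 (half-life ratio), 0.97 (synthesis in DMSO), 0.80 (synthesis in STM2457) and -0.073 (synthesis ratio). Per kb of length, synthesis differed by 0.80 in DMSO and 0.47 in STM2457. Leaving out each member in turn gave -2.02 to -0.20 (half-life in DMSO), -0.84 to 0.50 (half-life in STM2457), 0.17 to 1.08 (half-life ratio), 0.97 to 2.37 (synthesis in DMSO), 0.23 to 1.78 (synthesis in STM2457) and -0.53 to -0.073 (synthesis ratio). The difference in median far motifs, 19.5, was 4 with GGACH, a narrower motif by construction. It rests on LATS1 and LATS2, with 58 and 41, since STK3 had 2 and STK4 had 1. Members were not left out in turn for this difference. Motif numbers of single members moved by over 1.5 times in 24 recounts with another distance, motif or transcript.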
